A study of Homo sapiens with 2 samples.

Results

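Early lymphoid genes were followed through single-cell RNA sequencing (scRNA-seq) of 2 blood-generating heart-forming organoids (BG-HFOs). The set held 9 genes, *IKZF1*, *IL7R*, *LTB*, *CD7*, *CD3E*, *IGLL1*, *RAG1*, *RAG2* and *DNTT*, chosen by their symbols among the 36601 genes listed for each library, and all 9 were listed in both. The organoids, 32.7 and 33.10, were taken on day 14 and each gave 1 library. Both were made from the human embryonic stem cell line hES3 NKX2.5-eGFP, which carries a green fluorescent reporter of the cardiac factor NKX2.5, by embedding cell aggregates in Matrigel and steering them with 2 phases of WNT pathway modulation and with cytokines and growth factors for endothelium and blood. They are replicates of 1 condition from 1 line, with no untreated group. Cell classes were therefore compared with each other, and p-values measure the spread between these 2 organoids, estimated over all classes in 1 fit.

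Lymphocytes arise in the embryo from haemogenic endothelium through progenitors that still make myeloid cells. In such progenitors IKZF1 opens lymphoid gene programmes, and IL7R and CD7 appear early on cells that go on to the T, natural killer (NK) and innate lymphoid lineages. Recombination of antigen receptor genes by RAG1 and RAG2, addition of nucleotides at the joints by DNTT, the surrogate light chain made with IGLL1 and the CD3E chain of the T cell receptor complex mark the later steps. Several of the earlier genes are not restricted to lymphocytes, and *IKZF1* is also active in myeloid and erythroid precursors.

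Organoid 32.7 had 191152562 unique molecular identifiers (UMIs, 1 per captured transcript) in 16866 barcodes and organoid 33.10 had 233818881 in 19948, with medians of 7842 and 8284.5 UMIs per barcode. Both hold more barcodes than the study plots per sample. After filtering, 16792 and 19893 cells remained, and 100 barcode sequences occurred in both libraries. Clusters were named from marker genes with the members and other lymphoid genes left out of the clustering. The classes were endothelial cells (EC, 2808 and 3168 cells in 32.7 and 33.10), cardiomyocytes (CM, 1702 and 1894), mesenchymal cells (MES, 3977 and 4148), posterior foregut endoderm-like cells (PFE, 466 and 32), erythroid cells (Ery, 1022 and 1849), megakaryocytes (Mk, 1605 and 4263), monocytes and macrophages (Mo/Mp, 1264 and 436), granulocyte-like cells (Gran, 243 and 91) and eosinophil-like cells (Eo, 94 and 98). The other 3611 and 3914 cells stayed unnamed. PFE had 9 of its own markers raised, and also 10 Mo/Mp, 6 Gran, 6 Mk and 6 CM markers. Within Mo/Mp, sub-cluster 0 (296 and 42 cells) also had 7 EC, 7 Gran and 4 Eo markers raised. Mo/Mp sub-cluster 7 (151 and 37 cells) also had 9 Ery, 5 Gran, 5 Eo and 4 CM markers raised. No class of haematopoietic progenitors formed with the naming rule used here. Even so, Mk cluster 12 had 6 of 10 progenitor markers raised, as had Eo sub-cluster 8 and Gran sub-cluster 11. Gran sub-cluster 12 and Eo sub-cluster 15 had 7. Names went to the class with the highest marker mean, so progenitor markers could be raised without giving the name. The study's own clustering did resolve a progenitor cluster, and reports some *CD7*-expressing cells in it and among monocytes and macrophages. Of 17 markers of lymphoid cells, which held none of the members, no cluster or sub-cluster had more than 3 raised, and the highest mean log2 ratio to the median cluster was 0.55, under the value of 1 that a name required.

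The members' places in the genome (GRCh38, GENCODE release 44) were chr7:50304068-50405101 on the + strand for *IKZF1*, chr5:35852695-35879603 (+) for *IL7R*, chr6:31580525-31582522 (-) for *LTB* and chr17:82314868-82317608 (-) for *CD7*. *CD3E* lies at chr11:118304730-118316175 (+), *IGLL1* at chr22:23573125-23580302 (-) and *DNTT* at chr10:96304409-96338564 (+). *RAG1* at chr11:36510372-36593156 (+) and *RAG2* at chr11:36575574-36598279 (-) overlap on opposite strands, and *RAG2* also overlaps *IFTAP*. *RAG1* also overlaps a gene without a symbol on its own + strand. That gene was not among those counted, and its part in the *RAG1* level was not tested. Cell Ranger was run with its default settings, which for this assay count reads on the sense strand of a gene. All members are protein coding, and UMIs in introns were counted.

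The 250 bases before the RefSeq start (GRCh38.p14) are shown for *IL7R*, *LTB* and *IKZF1*, read in the direction of transcription. The mean level of each of these members was highest in Mo/Mp or Gran. Of 9 members 7 had such a window. Capitals mark 3 short motifs, searched on both strands. GAGGAA, bound by ETS factors, occurred in 23.6% of 35116 windows of this length. TGTGGT, bound by RUNX factors, occurred in 11% and the GATA motif AGATAA in 9.17%.
*IL7R*, chr5:35856641-35856890, + strand: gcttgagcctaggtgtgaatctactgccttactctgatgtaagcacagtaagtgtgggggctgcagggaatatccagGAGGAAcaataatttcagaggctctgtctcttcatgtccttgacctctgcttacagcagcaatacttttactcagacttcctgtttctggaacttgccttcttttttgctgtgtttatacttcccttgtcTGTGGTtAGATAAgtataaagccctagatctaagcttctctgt
*LTB*, window 1 of 2, chr6:31582426-31582675, - strand: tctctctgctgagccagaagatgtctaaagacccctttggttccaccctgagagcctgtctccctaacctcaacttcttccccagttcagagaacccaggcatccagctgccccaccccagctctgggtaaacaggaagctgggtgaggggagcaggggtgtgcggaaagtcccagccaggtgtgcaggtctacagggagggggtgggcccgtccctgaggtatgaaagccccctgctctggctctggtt
*IKZF1*, window 1 of 3, chr7:50304466-50304715, + strand: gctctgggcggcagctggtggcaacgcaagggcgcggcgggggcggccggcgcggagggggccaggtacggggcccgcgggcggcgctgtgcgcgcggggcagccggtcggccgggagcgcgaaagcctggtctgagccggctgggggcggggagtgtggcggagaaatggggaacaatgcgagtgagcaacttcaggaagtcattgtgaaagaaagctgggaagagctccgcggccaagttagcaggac
The *IL7R* window held each motif once, at 173, 43 and 36 bases before the start for the ETS, RUNX and GATA forms. The windows shown for *LTB* and *IKZF1* held none of these letters. Of the windows not shown, *IKZF1* window 2 held the RUNX form at 144 bases before its start. *IKZF1* window 3 held the ETS form at 129 and 16 bases and the GATA form at 106 and 72. These are matches of letters only, and binding was not measured.

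The members fell into 2 sets by abundance. *IKZF1* had 6627 and 7527 UMIs in all barcodes of 32.7 and 33.10, *IL7R* had 2147 and 1351, *LTB* had 1777 and 1365 and *CD7* had 617 and 723. *RAG1* had 210 and 280 UMIs and *RAG2* had 90 and 105. *IGLL1*, *CD3E* and *DNTT* were close to absent, with 13 and 25, 8 and 5, and 3 and 2 UMIs. Levels below are UMIs scaled to 1000000 UMIs of a class (CPM) and compare classes within a gene. Shares are cells with at least 1 UMI after each cell was thinned to 3000 UMIs, with cells of fewer UMIs left out (3824 and 3268 in all), and exact binomial 95% intervals that cover counting error only. In whole-class sums, fewer cells with a transcript and less transcript per cell cannot be told apart.

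*IKZF1*, the zinc finger factor Ikaros, was found throughout the blood classes and was lower in the other classes. Of these PFE had the most, in 33.10 mainly from 1 barcode. Its level was 227 and 257 CPM in Gran, 235 and 219 in Eo, 137 and 164 in Mo/Mp, 67.9 and 77.1 in Ery and 35.5 and 46.8 in Mk (32.7 and 33.10). Gran and Eo overlapped, and every later step down this order separated both organoids of one class from both of the next. It was 10.1 and 5.37 CPM in PFE, 0.798 and 1.11 in EC, 1.01 and 1.90 in CM and 2.27 and 2.61 in MES. Of the 4 *IKZF1* UMIs of PFE in 33.10, 3 came from 1 barcode. Without it that value was 1.40 CPM, below MES and CM of 33.10. The part of the blood markers raised in PFE in its *IKZF1* level was not tested. At 3000 UMIs, 44.4% (37.4 to 51.7) and 51.3% (39.7 to 62.8) of Gran cells had an *IKZF1* UMI, against 0.188% (0.0610 to 0.438) and 0.412% (0.213 to 0.719) of EC, a class expected to lack it. Full median depths were 20367 and 15619 UMIs in Gran and 11310 and 8609.5 in EC. Within Gran, sub-cluster 10, led by *MPO* and *PRTN3*, reached 257 and 338 CPM, and sub-cluster 11 had 87.3 and 163. Sub-cluster 11 also had 13 Mo/Mp, 10 Mk and 8 Ery markers raised, at median depths of 3252.5 and 6030 UMIs. It made up 70 and 35 of the 243 and 91 Gran cells.

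*IL7R*, the alpha chain of the interleukin-7 receptor, was highest in Mo/Mp. It had 58.3 and 55.5 CPM there, 56.9 ± 2.02 (SD, n = 2 organoids), against 10.9 and 8.15 in MES, 3.78 and 10.9 in Gran and 6.85 and 5.25 in EC. Mo/Mp stood clear of MES, whereas MES, Gran and EC overlapped each other's neighbour in that order. *IL7R* was at 3.29 and 2.71 CPM in Mk, 2.81 and 0 in PFE, 1.97 and 0.620 in CM, 1.08 and 0.982 in Ery and 0 and 1.52 in Eo. At 3000 UMIs, 13.9% (11.8 to 16.3) and 15.5% (11.8 to 19.7) of Mo/Mp cells had an *IL7R* UMI. In CM, which should lack it, the shares were 0.161% and 0.125%, at median depths of 7433.5 and 9133 UMIs against 7472.5 and 11121 in Mo/Mp. Before thinning, the Mo/Mp shares were 24.9% and 32.1%. The highest single cell in Mo/Mp had 38 UMIs in 32.7 and 14 in 33.10, and 55 and 19 cells had 5 or more.

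*IL7R* and *LTB* varied among the sub-clusters of Mo/Mp. Sub-cluster 2, led by *S100A9*, *SPP1* and *C1QB*, a complement gene of macrophages, had 120 and 96.2 CPM of *IL7R*. Sub-cluster 13, led by *SPP1*, *CXCL8* and *CCL3*, had 219 and 112 CPM, from 48 and 3 cells. Sub-cluster 1, led by *S100A9*, *S100A8* and *LYZ*, had 55.0 and 105 CPM of *IL7R*, 185 and 169 CPM of *LTB* and 241 and 229 of *IKZF1*. In sub-cluster 2 *LTB* was at 32.0 and 62.9 CPM. *LTB* was thus higher in sub-cluster 1 than in sub-cluster 2 in both organoids, whereas *IL7R* was lower there in 32.7 and higher in 33.10. Sub-clusters were drawn on the same cells, so these are descriptions without a test.

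*IL7R* was also found outside blood, in particular clusters of EC and MES. EC cluster 8, led by *SOST*, *OIT3* and *NRG3*, had 17.9 and 12.1 CPM against 2.75 and 1.99 in EC cluster 0, led by *ESM1*. MES cluster 3, led by *TAC1*, had 23.0 and 13.5 CPM and MES cluster 16 had 16 and 15.1. MES cluster 1 stood at 0.50 and 0.41 CPM, and MES cluster 10, led by *DCN* and *LUM*, at 0.35 and 0.90. In each of these contrasts both organoids of the higher cluster lay above both of the lower. Leaving out predicted doublets changed little, with 18.3 and 12.3 CPM in cluster 8 and 24.1 and 14.7 in cluster 3. Of the 13 Mo/Mp markers, the complement genes *C1QA*, *C1QB* and *C1QC* were at or under 1.12 CPM in cluster 8. *MRC1*, also known from specialised endothelium, was at 98.3 and 135 CPM there and at 4.71 and 7.39 in cluster 0. *MS4A6A* was at 4.38 and 3.47 CPM in cluster 8 against 0.60 and 0.26 in cluster 0, and *CD68* at 7.44 and 7.02 against 3.47 and 3.93. *CSF1R* and *VCAN* were also higher in cluster 8 in both organoids. *C1QB* was lower there in both, and the remaining markers had no shared direction. *VCAN* is abundant in CM and MES, so the other 12 Mo/Mp markers were summed without it. In cluster 8 of 32.7 they had 140 CPM in the *IL7R*-positive and 116 in the *IL7R*-negative cells, and in 33.10 they had 154 and 147. Most of these cluster 8 sums was *MRC1*, at 98.3 and 135 CPM in the whole cluster, so they say little about the other markers there. In MES cluster 3 the sums of *IL7R*-positive and *IL7R*-negative cells were 20.6 and 52.2 CPM in 32.7 and 20.7 and 19.6 in 33.10. In MES cluster 16 they were higher in *IL7R*-positive cells in both organoids, at 27.9 against 18.4 CPM and 25.3 against 12.2, and the part of these markers in the *IL7R* level there was not tested. Mo/Mp as a whole had 5939 and 4650 CPM of these markers.

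*LTB*, the membrane-bound ligand lymphotoxin beta, had 70.2 and 72.1 CPM in Mo/Mp, 71.1 ± 1.36 (SD, n = 2). Gran followed with 18.9 and 93.4 CPM, which spanned both Mo/Mp values. Of the 189 *LTB* UMIs of Gran in 33.10, 78 came from 1 barcode, and without it that value was 55.3 CPM. In Eo, 49 of 67 UMIs in 33.10 came from 1 barcode, and the levels of 8.31 and 34.0 CPM became 8.31 and 9.43 when it alone was left out. Mk had 7.40 and 7.23 CPM, PFE 3.28 and 4.03, EC 2.45 and 2.11, and Ery, CM and MES between 0.363 and 0.901. The PFE value in 33.10 rests on 3 UMIs. At 3000 UMIs, 15.8% (13.6 to 18.3) and 18.4% (14.4 to 22.9) of Mo/Mp cells had an *LTB* UMI, against 0.0806% and 0.125% of CM.

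*CD7*, a surface glycoprotein of early T and NK cells, followed another order and was low in Mo/Mp. PFE had 11.7 and 13.4 CPM, Mk 10.2 and 8.78, Eo 5.19 and 7.10, Gran 5.58 and 2.96, Ery 3.52 and 2.91, MES 4.00 and 2.00, and Mo/Mp 2.34 and 0.479. PFE lay above Mk and Mk above Eo in both organoids, while each of the classes from Eo down to Mo/Mp overlapped the next. CM had 0.732 and 0.841 CPM and EC 0.220 and 0.176. Shares were small, at 1.81% (1.10 to 2.82) and 2.55% (2.04 to 3.14) of Mk cells at 3000 UMIs. In EC they were 0.0752% and 0 of 2910 cells, which allows a share of up to 0.103%, at median depths of 11310 and 8609.5 UMIs against 5460 and 6529 in Mk. The PFE value in 33.10 rests on 10 UMIs in 32 cells. PFE also had markers of Mo/Mp, Gran, Mk and CM raised, and their part in its *CD7* level was not tested.

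Cells with a *CD7* UMI were found in every class. Mk held 18.4% and 47.4% of them and 9.56% and 21.4% of all cells. MES held 33.2% and 14.2% of them and 23.7% and 20.9% of all cells, so it lay above its share of cells in 32.7 and below it in 33.10. Unnamed cells held 13.4% and 18.6%, and Mo/Mp 6.80% and 0.489%. Among Mk clusters, 12 and 13 had 15.8 and 11.5, and 14.1 and 11.9 CPM, above cluster 5, at 6.82 and 7.49, and cluster 9, at 3.05 and 5.42. Cluster 12 also had 9 Ery, 6 Eo and 6 progenitor markers raised, and 11.7% and 22.7% of it were predicted doublets. Without these it had 15.9 and 12.4 CPM of *CD7*. Cluster 13 was shallow, with medians of 1278 and 1798 UMIs. MES cluster 10 had 11.1 and 6.51 CPM, above the 2.34 and 2.18 of cluster 1, the 1.48 and 1.03 of cluster 3 and the 1.18 and 1.41 of cluster 16. *CD2*, a T cell adhesion molecule, was found in 20.7% and 21.0% of *CD7*-positive Mk cells and in 7.27% and 9.52% of *CD7*-negative ones. The positive cells were deeper, with medians of 17472 and 14902 UMIs against 5157 and 6110.5, and the part of depth in this difference was not tested.

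**Figure D1:**
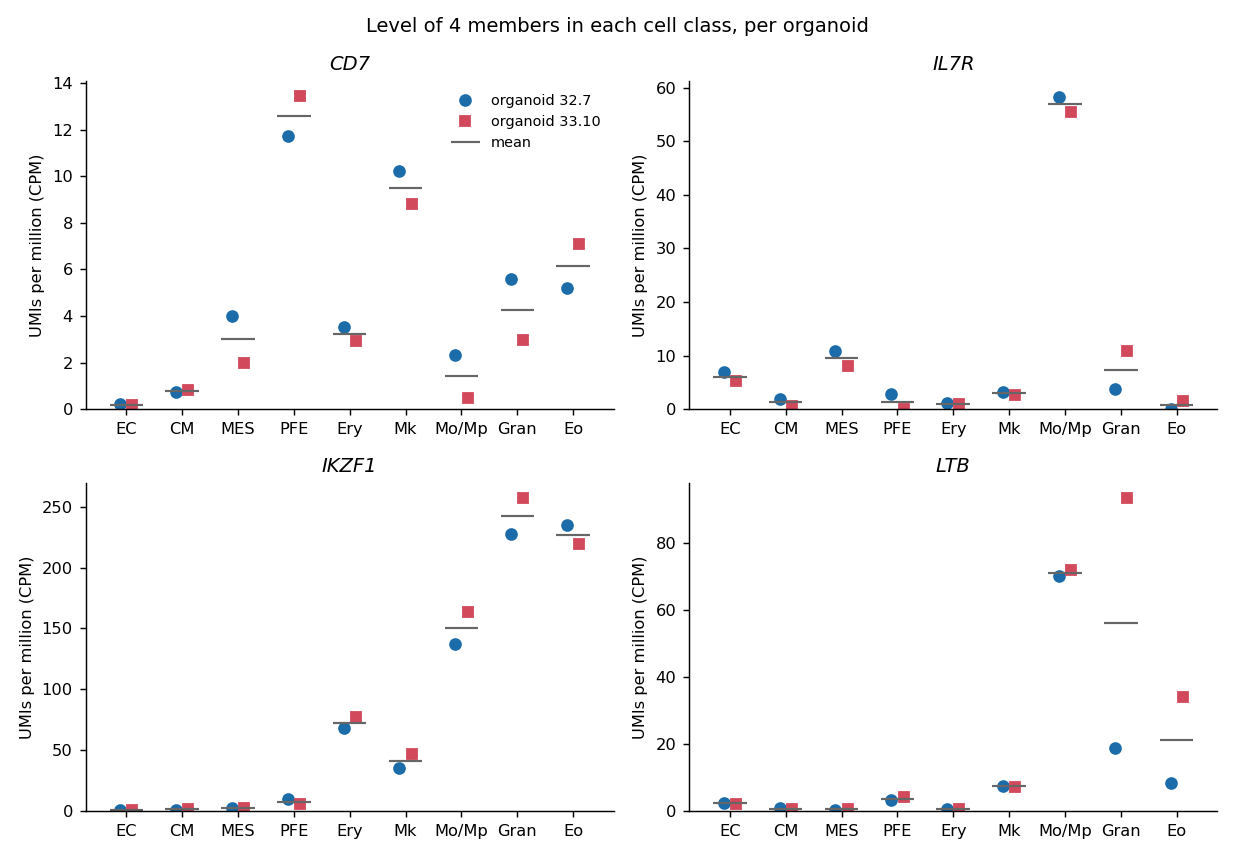
Level of *CD7*, *IL7R*, *IKZF1* and *LTB* (y axis, CPM) in 9 cell classes (x axis), with 1 point per organoid and a line at their mean. *IL7R* is highest in Mo/Mp in both organoids, and *IKZF1* is high in Gran, Eo and Mo/Mp. *CD7* is highest in PFE and Mk, and PFE also had markers of Mo/Mp, Gran, Mk and CM raised. The *LTB* values of Gran lie apart at 18.9 and 93.4 CPM.

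**Figure D2:**
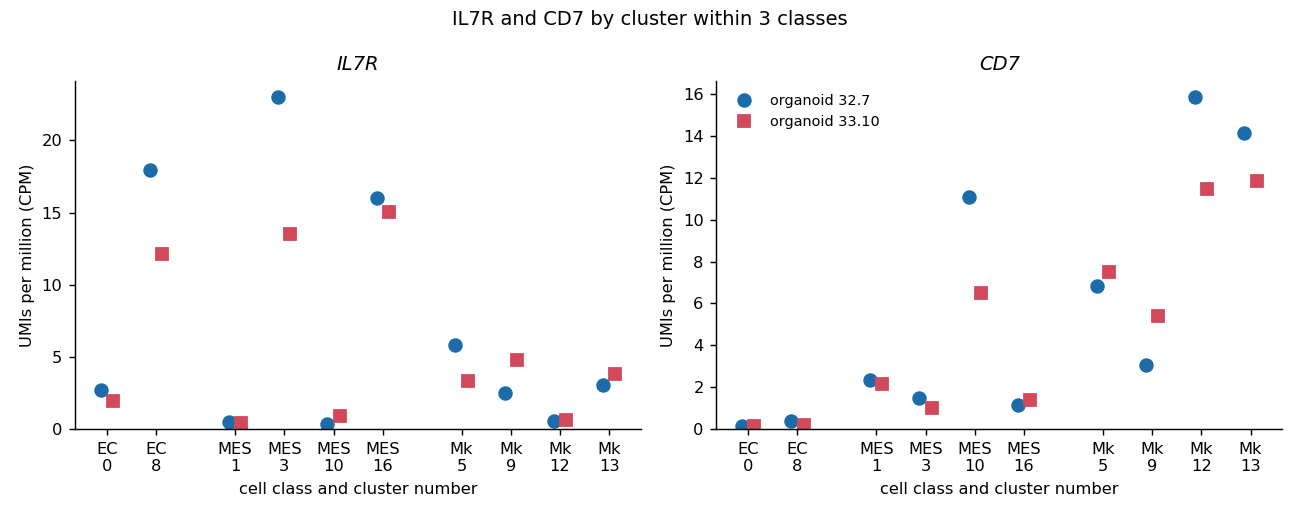
Level of *IL7R* and *CD7* (y axis, CPM) in the clusters of EC, MES and Mk (x axis), with 1 point per organoid. *IL7R* is high in EC cluster 8 and MES clusters 3 and 16, and *CD7* in Mk clusters 12 and 13 and MES cluster 10. Mk cluster 12 also had Ery, Eo and progenitor markers raised.

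The recombination genes were found at a low level that was not concentrated in any blood class. *RAG1*, which forms the recombinase with *RAG2*, had 1.71 and 1.32 CPM in EC, 1.22 and 1.36 in MES, 0.959 and 1.21 in Mk, 0.520 and 0.639 in Mo/Mp and 1.80 and 0 in Gran. At 3000 UMIs, no named class had more than 0.394% of cells with a *RAG1* UMI, and CM, which should lack it, had 0.161% and 0.250%. *RAG2* had its highest mean in MES, at 0.598 and 0.753 CPM, which overlapped EC, at 0.688 and 0.528. No named class had a *RAG2* share above 0.292%. Both genes were seen together in 2 of 202 *RAG1*-positive cells of 32.7 and 1 of 258 of 33.10. *RAG2* was present in 0.990% and 0.388% of *RAG1*-positive cells and in 0.518% and 0.530% of the others, at median depths of 17464.5 and 18307.5 against 7803 and 8214 UMIs.

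*DNTT*, the terminal transferase, had 3 and 2 UMIs, each in a separate cell. They lay in EC, MES and Mk in 32.7 and in Mk and an unnamed cluster in 33.10, and none of these cells had *RAG1* or *RAG2*. In Mo/Mp, 0 of 954 and 0 of 343 cells had a *DNTT* UMI at 3000 UMIs, which allows shares of up to 0.314% and 0.875%. *CD3E*, a signalling chain of the T cell receptor complex, had 8 and 5 UMIs, never more than 1 in a cell. Of these 13 cells 5 were MES, 2 PFE, 2 Mo/Mp, 2 Eo, 1 Gran and 1 Mk. Another CD3 gene (*CD3D*, *CD3G* or *CD247*) was seen in 1 of 8 and 1 of 5 of them.

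*IGLL1*, the lambda5 part of the surrogate light chain, was spread over few cells, with 13 UMIs in 10 cells of 32.7 and 25 in 18 cells of 33.10. Eo had the highest level in both organoids, 2.08 and 2.03 CPM, from 4 UMIs in 2 cells and 4 UMIs in 4 cells. In Mk of 33.10, 7 of the 12 UMIs came from 1 barcode of cluster 12 with 35453 UMIs. *VPREB1*, its partner in the surrogate light chain, had 0 UMIs in both libraries, as had *IGHM*, the heavy chain of immunoglobulin M. *VPREB3*, *CD79A* or *CD79B* was seen in 0 of 10 and 1 of 18 *IGLL1*-positive cells.

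**Figure D3:**
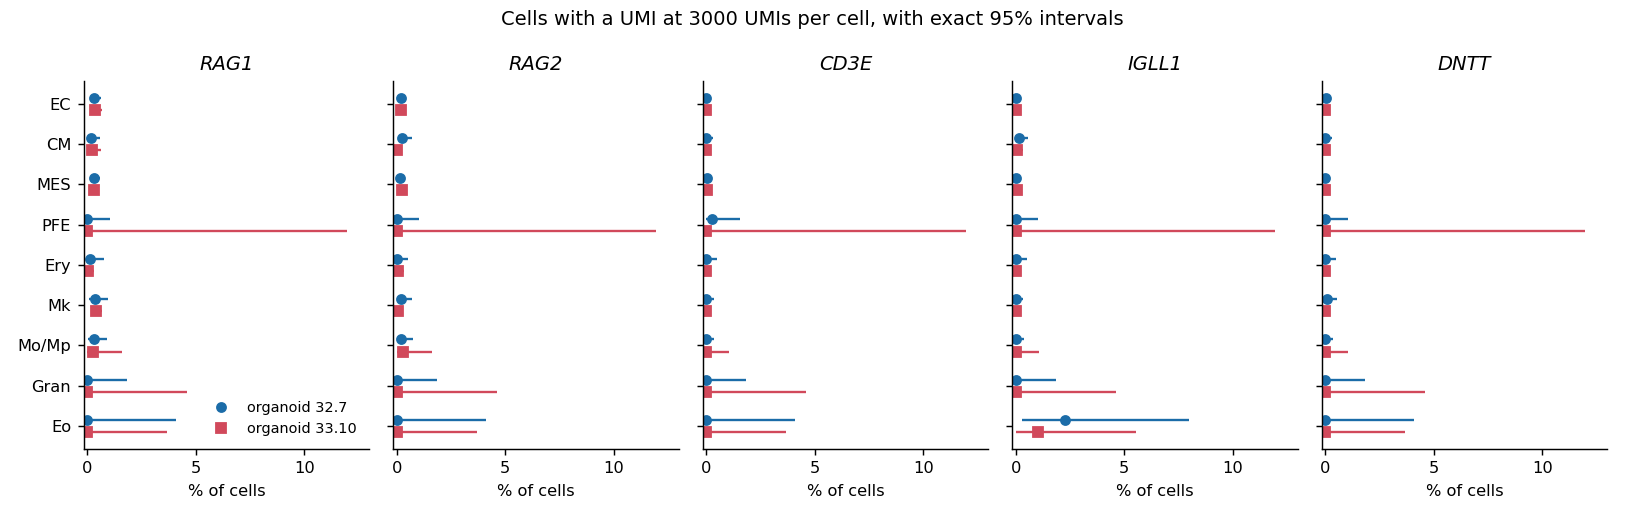
Share of cells with a UMI of *RAG1*, *RAG2*, *CD3E*, *IGLL1* and *DNTT* at 3000 UMIs per cell (x axis, percent) in 9 classes (y axis), with exact binomial 95% intervals per organoid. No share lies above 0.394% except those of *IGLL1* in Eo, at 2.27% and 1.02%, and the wide intervals belong to classes with few cells, such as PFE in 33.10.

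Levels of Mo/Mp and EC were compared first, since blood arises from endothelium. UMIs were summed per class and organoid and tested in 1 fit with edgeR's quasi-likelihood test over 21794 genes. Of the members 7 were tested, and *CD3E* and *DNTT* were too low. *IKZF1*, *LTB*, *IL7R* and *CD7* were higher in Mo/Mp, 4 of 7, where 21.3% of all genes were called higher, 26.2% lower and 47.5% either way. The log2 fold change, with edgeR's Benjamini-Hochberg adjusted p, was 7.39 ± 0.25 (SE; adjusted p = 2.98e-11) for *IKZF1*. It was 5.06 ± 0.55 (edgeR adjusted p = 2.53e-06) for *LTB* and 3.33 ± 0.38 (edgeR adjusted p = 4.19e-06) for *IL7R*. *CD7* differed by 3.13 ± 0.61 (edgeR adjusted p = 0.000594), a difference between 39 and 14 UMIs in all, and by 2.11 with predicted doublets removed. *RAG1*, at -1.32 (edgeR adjusted p = 0.0764), *RAG2*, at -0.80 (0.308), and *IGLL1*, with 0 UMIs in Mo/Mp (0.370), did not pass.

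Gran and Mo/Mp, the granulocytic and monocytic branches, differed in *IL7R* and *IKZF1*. *IL7R* was lower in Gran, with a log2 fold change of -3.18 ± 0.47 (edgeR adjusted p = 0.000306), and *IKZF1* was higher by 0.70 ± 0.18 (edgeR adjusted p = 0.0102). Of all genes 9.75% were called higher and 12.8% lower (22.5% in all), and the share of calls that were higher moved from 43.3% to 33.0% with another scaling. The call of *IKZF1* was lost with predicted doublets removed (0.38, edgeR adjusted p = 0.147) and under a stricter cell filter (0.42, edgeR adjusted p = 0.247). *CD7* had a log2 fold change of 1.51 ± 0.54 (edgeR adjusted p = 0.0591), and 1.5 (edgeR adjusted p = 0.0278) with the organoid as a block, which passes. *LTB* was at -0.46 ± 0.49 (edgeR adjusted p = 0.549), or -1.04 (edgeR adjusted p = 0.0762) without the barcode with 78 UMIs. With predicted doublets removed it was lower in Gran, at -1.80 (edgeR adjusted p = 1.61e-05). *RAG1* (1.18, edgeR adjusted p = 0.319) and *RAG2* (-1.20, edgeR adjusted p = 0.561) did not pass, and *IGLL1* was at 0 UMIs in both classes. This comparison and the one against EC use the same Mo/Mp sums. Those sums include sub-cluster 0, with EC and Gran markers also raised, and sub-cluster 7, with Ery and Gran markers also raised. The Gran sums include sub-cluster 11, with Mo/Mp, Mk and Ery markers also raised. They also include sub-cluster 12 (61 and 33 cells), with 7 progenitor and 7 Mo/Mp markers raised. The part of these sub-clusters in the fold changes was not tested separately.

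Mk and Ery, branches of a shared progenitor, differed in 5 of the 7 tested members, where 43.3% of all genes were called (21.1% higher and 22.2% lower). *LTB* was higher in Mk by 3.58 ± 0.71 on the log2 scale (edgeR adjusted p = 0.000812), *CD7* by 1.40 ± 0.38 (edgeR adjusted p = 0.00814) and *IL7R* by 1.36 ± 0.50 (edgeR adjusted p = 0.0406). With predicted doublets removed *IL7R* stood at 3.46, and *LTB* at 2.56 when lymphoid genes were kept for clustering. The Ery sums include cluster 15 (438 and 430 cells), of which 44.1% and 82.1% were predicted doublets. It also had 5 MES markers raised, and its *IL7R* level was 3.35 and 3.34 CPM against 0.43 and 0.10 in Ery cluster 6. The Mk sums include cluster 12, with 9 Ery, 6 Eo and 6 progenitor markers also raised. The part of clusters 12 and 15 in these fold changes was not tested separately. *IKZF1* was lower in Mk by a log2 fold change of -0.98 ± 0.18 (edgeR adjusted p = 0.000379). *IGLL1* had 13 UMIs in Mk and 0 in Ery, at least 3.32-fold higher against a floor of 3 counts over the group (edgeR adjusted p = 0.0223). Without the barcode with 7 UMIs the call was lost (edgeR adjusted p = 0.0626). *RAG1* (0.85, edgeR adjusted p = 0.216) and *RAG2* (-0.49, edgeR adjusted p = 0.546) did not pass.

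**Figure D4:**
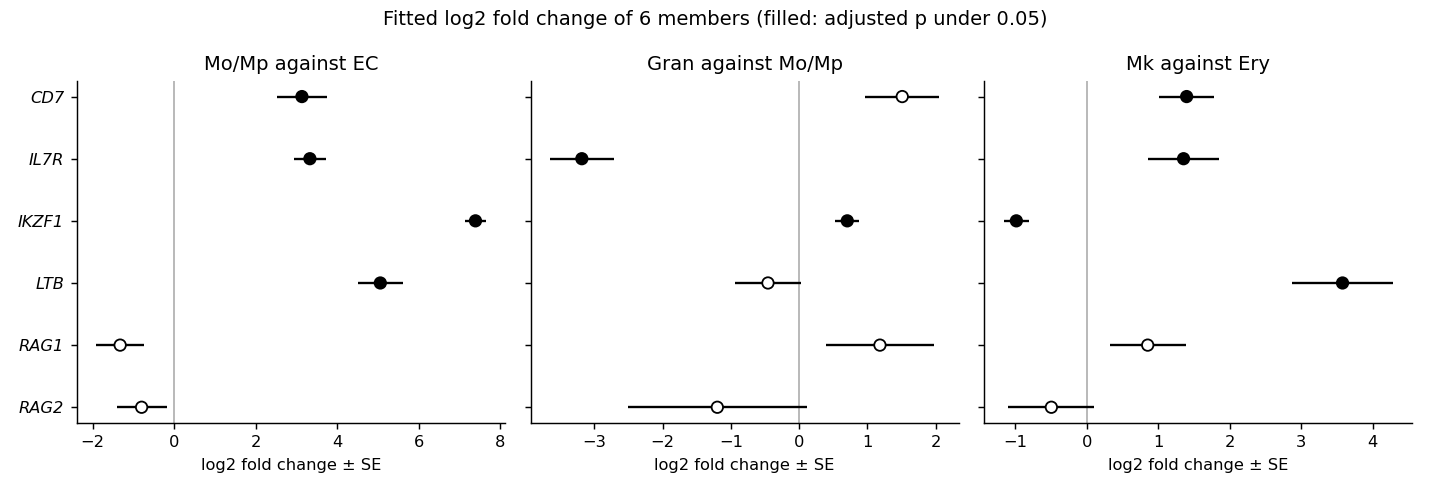
Fitted log2 fold change of 6 members (x axis, bars are SE from 2 organoids per class) in 3 comparisons of classes, with filled points where edgeR's adjusted p was under 0.05. *IKZF1*, *LTB*, *IL7R* and *CD7* are filled for Mo/Mp against EC, *IL7R* and *IKZF1* for Gran against Mo/Mp, and *IKZF1* is the only filled member below 0 for Mk against Ery.

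Genes of the wider lymphoid lists were called in both directions between Mo/Mp and EC, where 21.3% of all genes were called higher and 26.2% lower. Of 13 tested T cell genes, 3 were higher and 3 lower in Mo/Mp than in EC, with a median log2 fold change of 0.21 (-0.04 with genes at 0 in a class set to their bound or left out) against -0.12 over all genes. *CD1A*, an antigen-presenting molecule of thymocytes and dendritic cells, had 50 UMIs in Mo/Mp and 0 in EC, and *CD2* was higher by 6.18. *GATA3* (-2.32) and *TCF7* (-1.22), factors of T cell commitment, were lower. Of 10 B cell genes, which include *RAG1* and *RAG2*, 3 were higher and 3 lower, median -0.43. The adaptor *BLNK* (4.17) was among the higher genes, and *EBF1* (-2.32) and *CD24* (-1.72) were lower.

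Of 13 NK and innate lymphoid genes 6 were higher and 1 was lower in Mo/Mp, median 1.41 (1.68 with genes at 0 in a class set to their bound or left out). The granule gene *NKG7* (8.90) and the adaptor *TYROBP* (8.17), which myeloid cells also use, led, and the granzyme *GZMA* was lower (-3.34). Of 18 regulators of lymphoid progenitors 4 were higher, led by *SPI1* (8.12) and *SPIB* (3.86), and 8 were lower, led by *TCF4* (-2.62) and *SOX4* (-2.14), median -0.03. Of 19 partners of the members 6 were higher and 4 lower, median 0.12. The shared cytokine receptor chain *IL2RG* (7.78), which pairs with IL7R, and the CD7 ligand *SECTM1* (6.92) were higher. The kinase *JAK1* (-1.47), which binds IL7R, and its ligand *IL7* (-1.08) were lower.

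Between Mk and Ery, where 21.1% of all genes were called higher and 22.2% lower, list genes were also called in both directions. Of 13 T cell genes 4 were higher and 2 lower, median -0.15 against -0.03 over all genes. *PTCRA*, the pre-T cell receptor alpha chain, had 58.8 and 51.2 CPM in Mk and 0.135 and 0.909 in Ery, a log2 fold change of 6.32. The adaptor *LAT*, also used in platelets, was at 212 and 199 CPM against 2.50 and 3.75 (5.83), and *LEF1* (-1.57) and *BCL11B* (-1.56) were lower. Of 10 B cell genes 3 were higher, led by *CD24* (2.47) and *CD22* (2.34), and none was lower, median 1.05. Of 13 NK and innate lymphoid genes 8 were higher, led by *PRF1* (4.93) and *FCER1G* (4.86), and *NCAM1* was lower (-1.59), median 1.49 (2.04 without *GZMK*, with 0 UMIs in Mk and 1 in Ery).

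Of 18 regulators, 4 were higher in Mk, led by *MEF2C* (1.78) and *SPI1* (1.22), and 6 lower, led by *ADA* (-2.46) and *TCF4* (-2.01), median -0.45. Of 19 partners 8 were higher, led by *TNF* (3.96) and *JAK3* (3.46), and 5 lower, led by *IL7* (-1.88) and *STAT5B* (-0.96), median 0.24.

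Between Gran and Mo/Mp, 9.75% of all genes were called higher and 12.8% lower. The Gran sums hold sub-clusters 11 and 12, with markers of other blood classes or progenitors raised, and their part in these values was not tested. Of 13 T cell genes 2 were higher, *CD3D* (2.22) and *LAT* (2.19), and 3 lower, median 0.16 against -0.10 over all genes. *CD1A* had 0 UMIs in Gran and was at least 5.84-fold lower, and *GATA3* was lower (-3.33). Of 10 B cell genes *CD24* was higher (2.11) and 3 were lower, led by *BLNK* (-4.77) and *EBF1* (-2.88), median -0.97. Of 13 NK and innate lymphoid genes none was higher and 4 were lower, among them *FCER1G* (-1.76) and *GZMA*, with 0 UMIs in Gran and 14 in Mo/Mp, median -0.89 (-0.58 with genes at 0 in a class set to their bound or left out). Of 18 regulators *SPINK2* (3.51) and *BCL11A* (1.78) were higher and 5 were lower, led by *MME* (-3.26) and *ID3* (-2.17), median -0.06. Of 19 partners 3 were higher, led by *PRKDC* (0.99) and *HMGB1* (0.58), and 3 lower, led by *SECTM1* (-3.48) and *TNF* (-1.85), median 0.01.

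Co-detection of members was most frequent in Mo/Mp. UMIs of 2 or more members were found in 864 cells (5.15%) of 32.7 and 810 (4.07%) of 33.10, of 3 or more in 186 and 130, of 4 or more in 17 and 8, and of 5 or more in 0. By class the share with 2 or more was 32.8% and 42.9% in Mo/Mp, 29.6% and 31.9% in Gran, 18.1% and 28.6% in Eo and 5.48% and 5.98% in Mk, against 0.855% and 0.473% in EC and 0.235% and 0.370% in CM. Deeper cells show more genes, and at 3000 UMIs 146 cells (1.13%) and 100 (0.602%) remained, with 11.4% and 14.3% of Mo/Mp, 4.55% and 3.85% of Gran and 3.41% and 2.04% of Eo. No cell then had 4 members, and 9 and 5 had 3.

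**Figure D5:**
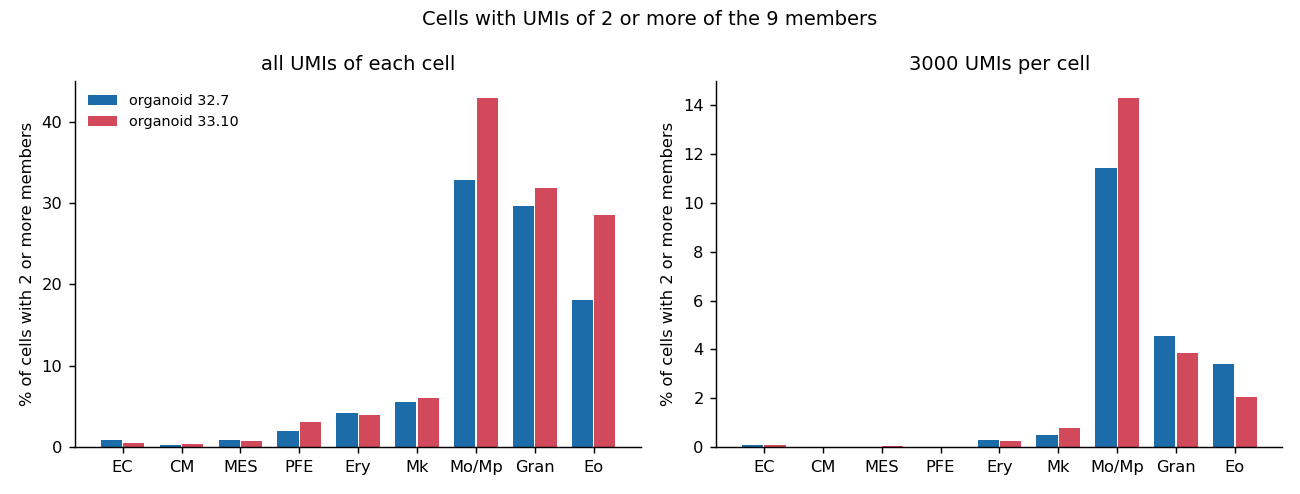
Share of cells with UMIs of 2 or more of the 9 members (y axis, percent) by class (x axis) and organoid (bars), with all UMIs of each cell on the left and with 3000 UMIs per cell on the right. Mo/Mp leads in both organoids, at 32.8% and 42.9% with all UMIs and at 11.4% and 14.3% with 3000.

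Of the 36 pairs, *IKZF1* with *LTB* was the most frequent at 3000 UMIs, in 79 and 44 cells, followed by *IL7R* with *IKZF1* in 42 and 25 and *IL7R* with *LTB* in 21 and 17. Over all cells *LTB* was seen in 6.62% (4.15 to 9.95) and 7.39% (4.36 to 11.6) of *IL7R*-positive cells and in 1.79% and 1.12% of the others. Within Mo/Mp this was not repeated. There *LTB* was seen in 12.8% (7.63 to 19.7) of *IL7R*-positive and 16.3% of *IL7R*-negative cells of 32.7, and in 28.3% (16.8 to 42.3) and 16.6% in 33.10, so the organoids pointed in opposite directions. *IKZF1* was found in 25.6% and 30.2% of *IL7R*-positive and 28.5% and 35.2% of *IL7R*-negative Mo/Mp cells. *LTB* was found in 25% (19.9 to 30.6) of *IKZF1*-positive against 12.2% (9.89 to 14.9) of *IKZF1*-negative Mo/Mp cells in 32.7, and in 22.9% (15.7 to 31.5) against 16% (11.5 to 21.5) in 33.10, where the intervals overlap. *CD7* with *IKZF1* was seen in 13 and 15 cells at 3000 UMIs, and *CD7* with *IL7R* in 1 and 2.

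Genes with the most similar pattern were found by Pearson's r of log2(CPM + 1) over 48 points, 24 clusters in each of 2 organoids, among 17020 genes. The points share libraries and depth, so r describes these data only. *IL7R* was most like *TLR4* (r = 0.86), *CCL2* (0.81) and *CASP4* (0.79). *LTB* was most like *LST1* (0.94), *ARHGAP4* (0.94) and *SQOR* (0.93), and *LST1* lies 3601 bases from *LTB* on chromosome 6. *IKZF1* was most like *SPN* (0.94), *AP000331.1* (0.93) and *PIM1* (0.93), of which *SPN* was a marker used to name progenitors. *CD7* was most like *ABHD14B* (0.80), *FAH* (0.77) and *CLU* (0.77). *RAG1* was most like *STAT3* (0.74), *AL035587.1* (0.72) and *ORAI2* (0.72), and *RAG2* like *IFFO1* (0.63), *ZNF624* (0.63) and *AL136366.1* (0.62).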

How the data were processed

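Each library held the deposited counts (UMIs per gene and barcode), which the authors made with Cell Ranger 7.0.0 on GRCh38 with intronic reads included, before their later depth equalisation and ambient RNA removal. Cells with 50 to 11000 genes and under 30% mitochondrial UMIs were kept. Counts were normalised and clustered with Scanpy 1.11.5 (3000 variable genes, of which 2978 remained without the members and lymphoid lists, 13 principal components, 20 neighbours, Leiden resolution 0.8). The 2945 cells of clusters led by Mo/Mp or Gran markers were clustered a second time, and the Mk and Ery clusters were not. These were clusters 11, 18 and 19. Clusters 18, with CM markers beside those of Mo/Mp, and 19 had themselves stayed unnamed, whereas the plan was to take named clusters only. Names from the second clustering replaced the first. Clusters were named where at least 3 markers were raised at least 2-fold over the median cluster. The mean log2 ratio of the class also had to be at least 1. A cluster stayed unnamed where a second class met these limits with at least 0.4 of the leading mean, unless both were blood. Shallow clusters without a marker of their class among the leading genes stayed unnamed. So did clusters with more markers of another class among those genes. These limits were set after a first clustering had been seen. Doublets were scored with Scrublet, assuming 0.8% per 1000 barcodes. They were kept in the main results. In 32.7 its own threshold marked 0.00596% of cells, so the top-scoring 14.1% were taken instead, and in 33.10 it marked 21.0%.

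UMIs were summed per class and organoid (18 sums) and tested with edgeR 4.0.16 (TMM scaling, low counts filtered, quasi-likelihood F test, Benjamini-Hochberg adjustment, threshold 0.05), without a block. The same organoid supplied each pair of class sums, so a fit with the organoid as replicate block was also made. Over 36 pairs of classes, deviations of the same organoid correlated between -0.02 and 0.34 (median 0.07). The test was also tried on simulated counts for Mo/Mp against EC, Gran against Mo/Mp and Mk against Ery. It recovered 83, 79 and 71 of 100 genes changed by a log2 value of 1 and 99 of 100 changed by 2. Counts were drawn independently for each sum, with the spread that the same fit had estimated. Of 21794 genes 200 were changed, a smaller part than was called in the data. Recovery in the real comparisons can therefore differ. The changed genes were drawn only from those above a minimum of expected UMIs in the smallest sum. Genes with as few UMIs as *RAG1*, *RAG2* or *IGLL1* were therefore not among them. The same holds for genes as low as *CD7* in the comparisons with Mo/Mp. What the test misses at such low counts was not tested. Likeness and co-detection were computed from the same counts, and motif matches from the reference sequences. All members were named. Of each list, the 2 genes with the largest change in each direction were named, except 1 result that is not reported here. The members and lists were chosen with earlier results of these data known. Predicted doublets, stricter cell filters, other clustering, scaling and thinning depths were tried as alternatives.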

Additional observations from a re-analysis of the deposited data

How the results depend on the processing

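No class of haematopoietic progenitors formed under any setting with the naming rule used here, so its comparisons with EC and Mo/Mp were not run. Gran against Mo/Mp could not be fitted at Leiden resolution 0.4 or with first-level names only. With 2 organoids of 1 line, no fit was made without 1 organoid. Values given for this case are differences of log2 CPM between 2 class sums of the other organoid, without a test. A small count was added to each sum, which shrinks differences at low counts. They are therefore not the fitted fold changes, and both can lie on the same side of the main value. Classes of under 100 cells, such as Eo, Gran of 33.10 and PFE of 33.10, limit the shares. Of the fold changes of members under the alternatives, 226 kept their direction and call or, without 1 organoid, lay within the SE of the main value. Another 11 values without 1 organoid moved by more than the SE. Of the tested values 9 gained and 7 lost a call, and 1 turned its direction. That was the log2 fold change of *IGLL1*, Mo/Mp against EC, not called in the main results, at 0.077 (edgeR adjusted p = 0.976) at Leiden resolution 1.2. Without organoid 32.7, *RAG1*, *RAG2* and *LTB* in Gran against Mo/Mp, none of them called, also turned their direction. The part of free RNA in the low levels of tissue classes was not tested. The cause of each change below was not tested.

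With the organoid as replicate block, *CD7* in Gran against Mo/Mp passed at 1.5 (edgeR adjusted p = 0.0278), and the block changed no other call of a member. Log2 fold change of *CD7*, Gran against Mo/Mp, was 1.46 with DESeq2 (adjusted p = 0.0410), 1.49 with no filter on low counts (edgeR adjusted p = 0.0297) and 1.93 with predicted doublets removed (edgeR adjusted p = 0.0412), with 1.26 to 2.38 when 1 organoid was left out. Log2 fold change of *IKZF1*, Gran against Mo/Mp, was 0.42 (edgeR adjusted p = 0.247) with at least 1000 genes and under 15% mitochondrial UMIs and 0.38 (edgeR adjusted p = 0.147) without predicted doublets. Log2 fold change of *LTB*, Gran against Mo/Mp, was -2.25 (edgeR adjusted p = 5.58e-05) under that stricter filter, -1.40 (0.0187) with the members kept for clustering and -1.80 (1.61e-05) without predicted doublets, with -1.85 to 0.36 when 1 organoid was left out. Log2 fold change of *RAG1* was 1.25 (edgeR adjusted p = 0.0361) at Leiden resolution 0.4 for Mk against Ery and -1.81 (edgeR adjusted p = 0.0113) with first-level names for Mo/Mp against EC. Log2 fold change of *IGLL1*, Mk against Ery, was 4.26 with DESeq2 (adjusted p = 0.0557), 2.35 (edgeR adjusted p = 0.126) at Leiden resolution 1.2, 3.45 (0.197) under the stricter filter, 1.43 (0.286) without predicted doublets and 4.21 (0.0626) without the barcode with 7 UMIs, with 0.78 to 2.00 when 1 organoid was left out.

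Leaving out 1 organoid gave -3.87 to -2.35 for *IL7R*, -2.82 to 1.65 for *RAG1* and -2.06 to 0.49 for *RAG2* in Gran against Mo/Mp, and 1.13 to 2.98 for *CD7* and -0.60 to -0.33 for *IGLL1* in Mo/Mp against EC. *IL7R* in Mk against Ery kept its call in every tested alternative, from 1.35 to 3.46. Genes called in Gran against Mo/Mp numbered 4910, and 2856 with 30 principal components.

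Shares, as means of the 2 organoids, at 1500 UMIs, at 6000 UMIs and without thinning were 1.10%, 5.03% and 6.28% for *CD7* in Mk, 8.85%, 23.2% and 28.5% for *IL7R* in Mo/Mp, 31.8%, 73.0% and 75.9% for *IKZF1* in Gran, and 9.61%, 26.2% and 31.1% for *LTB* in Mo/Mp. The share of *IL7R* in Mo/Mp was 18.8% with first-level names, 16.9% and 16.1% at Leiden resolutions 0.4 and 1.2, 17.6% with 30 principal components, 19.9% under the stricter filter, 19.0% without predicted doublets and 16.8% with the members kept for clustering. The share of *LTB* in Mo/Mp was 14.6% with a second seed, 19.1% at Leiden resolution 0.4 and 22% without predicted doublets, and that of *IKZF1* in Gran was 40.9% at Leiden resolution 1.2. Barcodes with 2 or more members numbered 1674 in all and 246 after thinning.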
